A study of Mus musculus with 2 samples.

Results

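The imprinted Dlk1-Dio3 region of mouse chromosome 12 carries a dense run of microRNA genes on its plus strand, and the genes described here are its distal group, known as the Mir379 to Mir410 cluster. Members were chosen by position alone: every microRNA gene of GENCODE M21 on chromosome 12, plus strand, that starts inside a window opening shortly before Mir379 and closing shortly after the host gene Mirg (mm10). The rule gave 39 of the 2202 microRNA genes counted, from Mir379 (ENSMUSG00000065498.4, start 109709060) to Mir3072 (ENSMUSG00000093351.1, end 109747960), and it therefore runs 1 gene past Mir410. MicroRNAs of both hearts came from female B6CASTF1/J mice aged 4 days, and RNA under 30 nt had been selected. Replicate 1 is the heart of the animal numbered 3 and replicate 2 that of the animal numbered 4, with the same donor entry for both, so the series has 1 group of 2 libraries and no treated or other-age group to compare. B6CASTF1/J is a cross between C57BL/6 and wild-derived CAST mice, and the counts do not separate the parental alleles. Whole hearts were used, with all their cell types. All values therefore describe the level of each gene in these hearts and the difference between the 2 libraries.

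MicroRNAs are cut from hairpins in longer transcripts, and each hairpin can give a mature strand from its 5p and its 3p arm. Bases 2 to 8 of a mature strand, the seed, do most of the work of finding target messenger RNAs. The hairpins of this cluster are known to be made from the maternal chromosome, as parts of long noncoding transcripts that run through Meg3, Rian and Mirg. Many arose from copies of an ancestral hairpin, often called the mir-154 family. The cluster is best known from brain, placenta and embryo, where it is high before birth, and the transcription factor Mef2 is known to activate it in neurons and muscle.

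Mature sequences came from RefSeq (GRCm38.p6, the mm10 build), which matched 38 of the 39 genes with 71 mature strands; Gm27379 had no match, and miR-376c-3p, miR-485-5p, miR-487b-3p and miR-539-3p had no entry. The deposited counts are per hairpin gene, so a sequence below shows what a gene can make, and the counts do not say which arm was sequenced. Capitals mark the seed, 5′ to 3′. The first set shows the strands that carry the same seed in more than 1 member, since these could share targets. There were 6 such seeds, in strands of 11 members, among 65 different seeds.

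miR-379-3p: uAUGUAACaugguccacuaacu
miR-411-3p: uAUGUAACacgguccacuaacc
miR-379-5p: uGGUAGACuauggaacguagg
miR-1193-5p: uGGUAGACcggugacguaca
miR-376c-5p: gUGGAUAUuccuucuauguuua
miR-376b-5p: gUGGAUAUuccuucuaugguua
miR-494-5p: aGGUUGUCcguguugucuucuc
miR-410-5p: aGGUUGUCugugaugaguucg
miR-1197-5p: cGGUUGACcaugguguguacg
miR-758-5p: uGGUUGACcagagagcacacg
miR-453: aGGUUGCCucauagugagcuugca
miR-496a-5p: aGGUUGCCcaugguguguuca

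With positions counted from 1 at the 5′ end and the first-named strand's base written first, miR-379-3p and miR-411-3p differed by U10C and U22C, both outside the seed. miR-376c-5p and miR-376b-5p differed by U19G alone. In the neighbouring genes Mir543 and Mir495, and again in Mir300 and Mir381, the 3p strands are near-identical but the seeds are not. These are shown because a difference inside the seed gives related hairpins different target sets.

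miR-543-3p: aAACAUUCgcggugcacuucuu
miR-495-3p: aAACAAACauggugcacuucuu
miR-300-3p: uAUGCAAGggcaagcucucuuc
miR-381-3p: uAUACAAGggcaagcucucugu

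miR-543-3p and miR-495-3p shared 18 of 22 bases, and of the 4 differences (U6A, U7A, G9A and C10U) 2 lay in the seed. miR-300-3p and miR-381-3p shared 19 of 22 bases, and G4A was the 1 difference in the seed, with U21G and C22U at the 3′ end. The members also shared short sequences outside these pairs. GGU at bases 2 to 4 stood in 14 of 36 5p strands of members (38.9%), against 11 of 661 other mouse 5p strands in the table (1.66%). ANGGU, where N is any base, stood in 10 of 34 3p strands (29.4%), against 38 of 675 others (5.63%). Both motifs were read on the mature strand only and were chosen after the sequences had been seen. Of the 14 genes with GGU in the 5p strand, 11 were detected (10 or more counts in both libraries), and 4 were among the 12 most abundant members. Of the 22 genes whose 5p strand lacked it, 21 were detected and 8 were among those 12. Median levels, in CPM (counts scaled to a library total of 1e+06), were 75.3 in replicate 1 and 59.0 in replicate 2 with the motif, and 84.8 and 94.7 without. Of the 10 genes with ANGGU in the 3p strand, 9 were detected and 5 were among the 12, with medians of 203 and 221 CPM. The 24 genes whose 3p strand lacked it had 21 detected, 5 among the 12, and medians of 77.6 and 73.9 CPM. These are descriptions, with no test.

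The cluster held 97139 of 6417302 microRNA counts in replicate 1, or 1.514% (95% Clopper-Pearson interval 1.504 to 1.523), and 85751 of 5662222 in replicate 2, or 1.514% (1.504 to 1.525). As a share of total counts, its sum was thus the same in both hearts within counting error. Intervals and floors cover counting error only, since no molecular identifiers are named. Of the 39 genes, 33 (84.6%) reached that minimum of 10 counts in both, against 16.9% of all 2202 genes. No gene lay between: the lowest count of a detected member was 102 and the highest of an undetected member was 4. Over the 39 genes the median was 81.8 CPM in replicate 1, while replicate 2 had 74.0 CPM. Over the 373 detected genes of the whole table the medians were 83.1 and 66.9 CPM, beside 88.2 and 94.0 CPM for the 33 detected members.

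**Figure D1:**
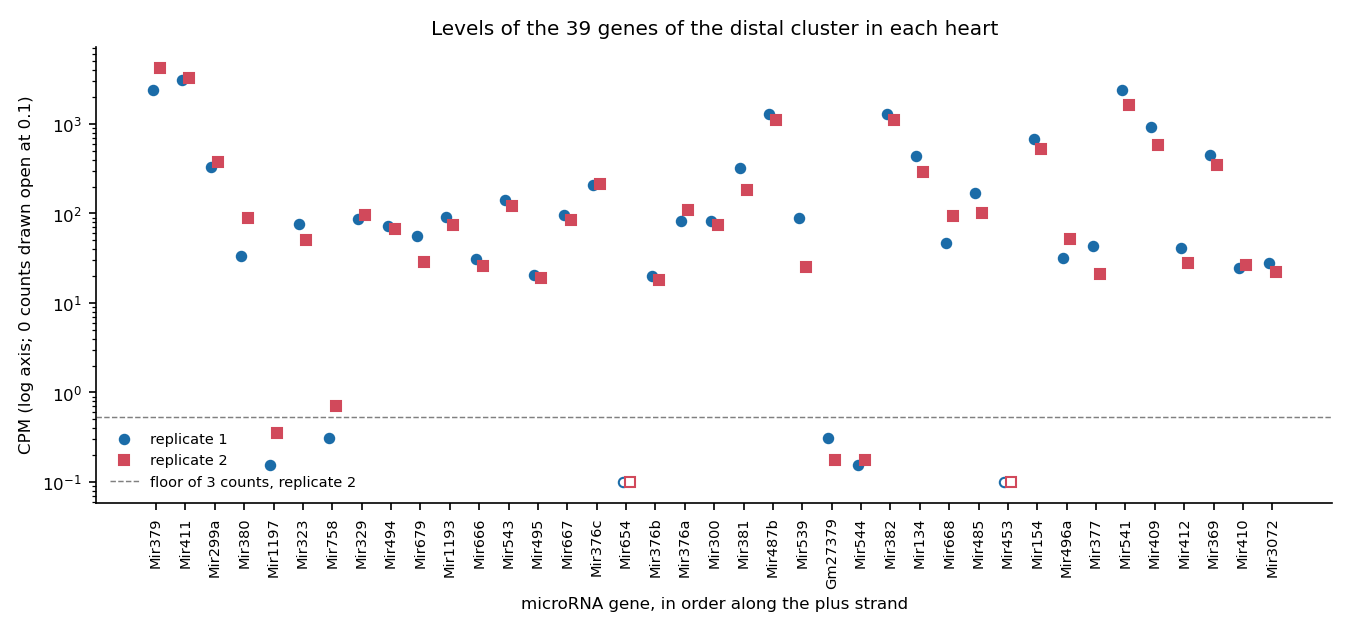
CPM on a log axis for the 39 genes in their order along the plus strand, with circles for replicate 1, squares for replicate 2, open symbols for genes at 0 counts and a dashed line at 3 counts in replicate 2. Mir379 reaches 4258 CPM and Mir411 3300 CPM in replicate 2, 6 genes lie at 0 to 4 counts, and none lies between 4 and 102 counts.

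A few hairpins held most of the counts. Mir411 (chromosome 12, 109710175 to 109710256), the second gene of the cluster, held 3090 CPM in replicate 1 and 3300 CPM in the other heart, a mean of 3195 ± 149 CPM (SD, n = 2). Mir379, 1 gene upstream (109709060 to 109709125), held 2394 and 4258 CPM (3326 ± 1318). Their order was therefore opposite in the 2 hearts: Mir379 made up 43.7% of the sum of both genes in replicate 1 (43.1 to 44.2) and 56.3% in replicate 2 (55.9 to 56.8). Mir411 shares a stretch of 20 nt with Mir758, so reads that match both genes are in neither count.

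Mir541 (109742409 to 109742498), a hairpin in an intron of Mirg near the distal end, followed with 2380 and 1630 CPM (2005 ± 530). In replicate 1 it was not distinguishable from Mir379 at this depth, since Mir379 made up 50.2% of their sum (49.6 to 50.7), whereas in replicate 2 Mir379 made up 72.3% (71.8 to 72.8). Mir382 (109733771 to 109733846) held 1285 and 1102 CPM (1193 ± 130), and Mir487b (109727333 to 109727414) held 1284 and 1102 CPM (1193 ± 128). These 5 genes were the 5 highest members in each heart. Together they held 68.9% of the cluster's counts in replicate 1 (68.6 to 69.2) and 75.2% in replicate 2 (74.9 to 75.5). In the ranking of all 2202 genes by mean CPM, Mir379 stood at place 46, Mir411 at 47, Mir541 at 58, Mir382 at 70 and Mir487b at 71. The mature strands of these leading genes not yet shown are given here, since these genes hold most of the cluster's counts.

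miR-411-5p: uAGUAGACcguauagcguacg
miR-541-5p: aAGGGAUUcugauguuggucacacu
miR-541-3p: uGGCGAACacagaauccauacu
miR-382-5p: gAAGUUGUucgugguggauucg
miR-382-3p: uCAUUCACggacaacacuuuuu
miR-487b-5p: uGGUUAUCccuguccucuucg

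The seed of miR-411-5p differs from that of miR-379-5p above, although their genes are neighbours and their 3p strands share a seed.

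Next in level was Mir409 (109743158 to 109743236), with 920 and 583 CPM. Mir154 (109738433 to 109738498), the gene that gives the mir-154 family its name, held 682 and 528 CPM. Mir369 held 449 and 352 CPM, and Mir134, known in neurons for limiting the size of dendritic spines, held 436 and 288 CPM. Mir299a held 328 and 381 CPM, Mir381 held 318 and 182 CPM, and Mir376c held 206 and 212 CPM. With these, the 12 most abundant genes held 91.0% of the cluster's counts in replicate 1 and 91.9% in replicate 2. The other 27 genes shared 9.01% and 8.11%.

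**Figure D2:**
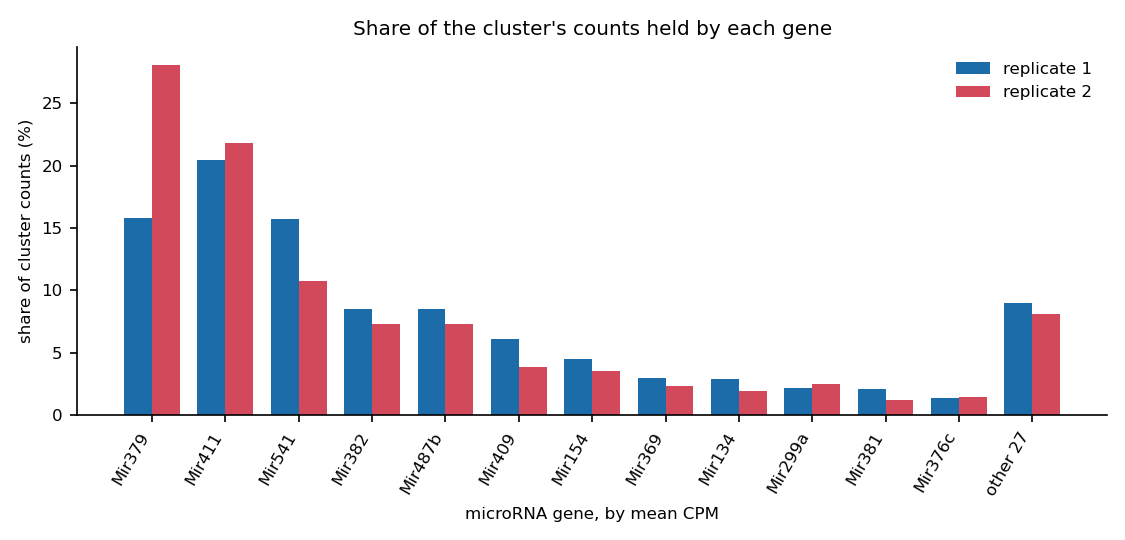
Share of the cluster's counts, in percent, held by the 12 genes with the highest mean CPM and by the other 27 together, with 1 bar for each replicate. Mir379 has 15.8% in replicate 1 and 28.1% in replicate 2, Mir541 has 15.7% and 10.8%, and Mir411 has 20.4% and 21.8%.

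Among the remaining 21 detected genes the levels ran from 18.0 to 169 CPM. Mir485 led them (169 and 101 CPM), followed by Mir543 (142 and 121 CPM) and Mir376a (82.1 and 110 CPM). Mir329, Mir667, Mir1193, Mir300, Mir668, Mir494, Mir323, Mir380 and Mir539 had mean levels from 56.6 to 91.4 CPM. Mir679, Mir496a, Mir377, Mir412, Mir666, Mir410, Mir3072, Mir495 and Mir376b had mean levels from 19.1 to 42.1 CPM. Mir410 and Mir495, studied elsewhere for promoting the division of newborn heart muscle cells, were thus near the lower end of the detected genes, at 24.5 and 26.7 CPM for Mir410 and 20.6 and 19.1 CPM for Mir495. Mir494, known for protection of heart muscle against ischaemic injury, held 73.4 and 66.4 CPM.

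The 6 undetected genes were Mir758 (2 and 4 counts), Mir1197 (1 and 2), Gm27379 (2 and 1), Mir544 (1 and 1), Mir654 (0 and 0) and Mir453 (0 and 0). For the last 2 a count of 0 allows up to 0.467 CPM in replicate 1 and 0.530 CPM in replicate 2, the level of 3 counts. They lie between detected genes: Mir1197 stands between Mir380 and Mir323, and Mir654 between Mir376c and Mir376b. Their hairpins had a median length of 83 nt and a GC content of 47.0%, against 79 nt and 42.6% for the detected genes.

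Families of related hairpins were uneven in level. Of the miR-376 genes, whose mature strands are known targets of A-to-I editing, Mir376c held 206 and 212 CPM, Mir376a 82.1 and 110 CPM and Mir376b 20.3 and 18.0 CPM. Mir376c made up 91.0% of the counts of Mir376c and Mir376b in replicate 1 (89.5 to 92.5) and 92.2% in replicate 2 (90.6 to 93.6), so the intervals of the hearts overlapped. Mir376b shares 20-nt stretches with Mir376c and with Mir487b, so reads matching 2 of these genes are missing from all of them. Mir1193, which shares a 5p seed with Mir379, had 581 and 418 counts (90.5 and 73.8 CPM), and Mir379 made up 96.4% and 98.3% of the sum of the pair. Mir543 made up 87.4% of its sum with Mir495 in replicate 1 (85.2 to 89.3) and 86.4% in replicate 2 (83.8 to 88.7). Mir381 made up 79.6% of its sum with Mir300 in replicate 1 (77.9 to 81.1) but 71.1% in replicate 2 (68.7 to 73.4).

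Along the chromosome the level did not follow position. The genes span 38.9 kb with a median gap of 556 nt between neighbours, and the gaps run from 20 to 4368 nt. Across the 33 detected genes Spearman's rho between position and mean CPM was −0.10, and over the 32 pairs of consecutive detected genes rho between a gene and the next was 0.02. These are descriptions over genes that share libraries and are not independent. A case in point is the distal end, where Mir409, Mir412, Mir369 and Mir410 lie within 1 stretch from 109743158 to 109743795. Mir409 held 95.8% of the counts of Mir409 and Mir412 in replicate 1 and 95.4% in replicate 2, and Mir369 held 94.8% and 93.0% of the counts of Mir369 and Mir410.

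Mirg, the noncoding host gene (chromosome 12, 109729764 to 109749460, plus strand), contains 14 of the 39 hairpins in M21, and 25 lie upstream of it. Inside Mirg, 4 hairpins (Mir134, Mir485, Mir377 and Mir410) lie wholly within an annotated exon, 5 (Mir382, Mir668, Mir412, Mir369 and Mir3072) overlap an exon in part, and 5 (Mir453, Mir154, Mir496a, Mir541 and Mir409) are intronic. The intronic hairpins held 26.5% of the cluster's counts in replicate 1 and 18.4% in replicate 2, those within exons 4.45% and 2.88%, those partly in exons 12.2% and 10.5%, and those upstream of Mirg 56.8% and 68.1%. Single genes weighed heavily in these shares. Mir379, which lies upstream, alone held 15.8% and 28.1% of the cluster's counts. Intronic Mir541 held 15.7% and 10.8%, partly exonic Mir382 8.49% and 7.27%, and exonic Mir134 2.88% and 1.90%.

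No read was counted on the minus strand over any of the 39 genes in either library. Of the members, Mir299a, Mir380, Mir376a, Mir539 and Mir409 overlap an annotated minus-strand hairpin (Mir299b, Gm25750, Gm25252, Gm44322 and Gm24321), and all 5 partners had 0 counts of their own. When strand was ignored in counting, the reads of these 5 members (9322 and 6730) could not be assigned, and 0 and 1 counts were left.

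The libraries were next compared gene by gene, which compares these 2 hearts and no condition. The test was an exact binomial test, two-sided, for the 491 genes whose summed counts reached 10, with library sizes scaled by edgeR's TMM factors. A gene was called at a Benjamini-Hochberg adjusted p under 0.05 over these 491 genes together with a fold over 2. All 33 detected members were tested. Of them 1 was called higher in replicate 1, where the share of all tested genes was 3.67%, and 4 were called higher in replicate 2, where it was 7.54%. In either direction 5 of 33 members (15.2%) were called, against 11.2% of all tested genes, so the cluster's count was near the background. By adjusted p under 0.05 alone, without the fold, 21 of 33 members (63.6%) passed, against 47.9% of all tested genes. All tested genes reach down to 10 summed counts, whereas no tested member had under 102 in a library. These shares are therefore not matched for depth.

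Mir380 (chromosome 12, 109711803 to 109711863) had 217 counts in replicate 1 and 507 in replicate 2 (33.8 and 89.5 CPM). Its log2 ratio of replicate 1 over replicate 2 was −1.74 (counting SE 0.12, exact binomial test, adjusted p = 2.36e-54). Mir668 (109734732 to 109734797), with 298 and 532 counts, had a ratio of −1.35 (counting SE 0.10, exact adjusted p = 2.59e-39). Mir379 had 15364 and 24108 counts and a ratio of −1.16 (counting SE 0.01). Mir496a (109739119 to 109739197), with 206 and 292 counts, lay at the threshold with a ratio of −1.02 (counting SE 0.13, exact adjusted p = 2.18e-14). Mir539 (109728129 to 109728202), known in heart muscle for targeting the mitochondrial protein prohibitin 2, was the gene higher in replicate 1, with 566 and 142 counts and a ratio of 1.48 (counting SE 0.14, exact adjusted p = 4.76e-32).

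**Figure D3:**
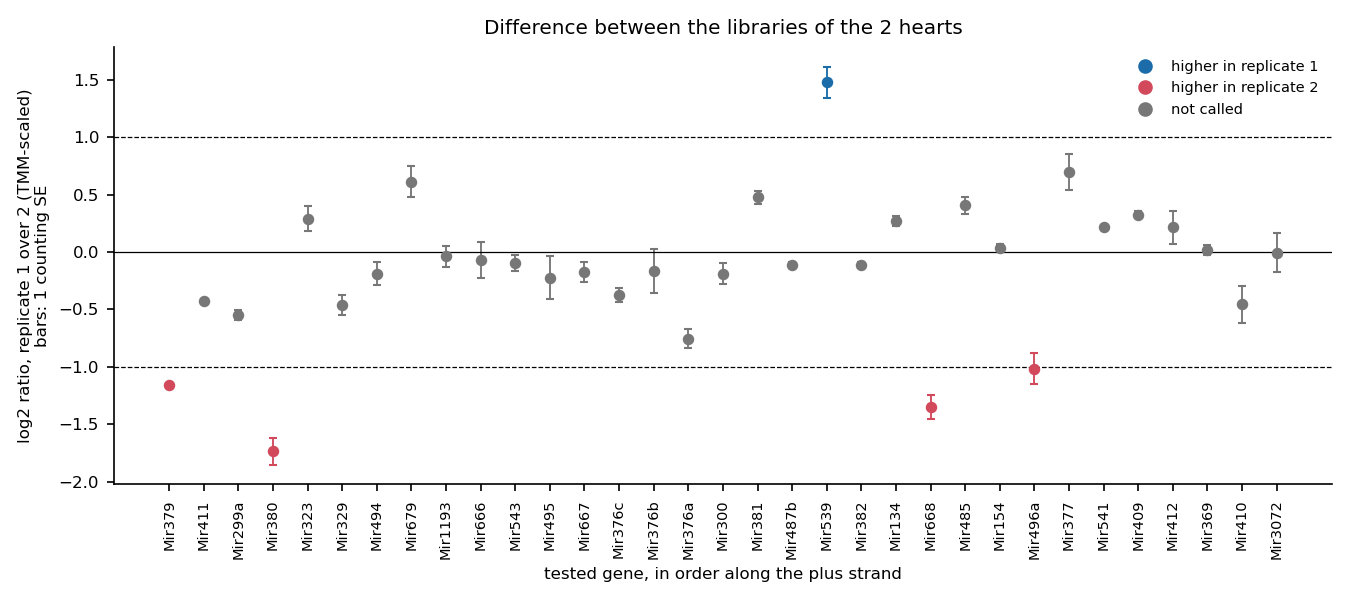
TMM-scaled log2 ratio of replicate 1 over replicate 2 for the 33 tested genes in chromosomal order, with bars of 1 counting standard error and dashed lines at 2-fold. Mir539 stands at 1.48, Mir380, Mir668, Mir379 and Mir496a stand at or under −1.02, and the other 28 genes lie between the dashed lines.

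The error in this test is counting error alone and holds no spread between animals. With the dispersion that edgeR estimated from both libraries (a biological coefficient of variation of 0.342), edgeR's exact test called none of the 33 members and 4 of all tested genes. Its lowest adjusted p among members was 0.535, for Mir380, and 2 members had an unadjusted p under 0.05. Because the estimate treated the 2 libraries as replicates, the differences tested also set the error. Few calls could then pass, so this result cannot show that the hearts do not differ. The scaling also matters: scaling by total counts raises every log2 ratio by 0.33, and the median over all tested genes goes from −0.02 to 0.31. Mir379 (−0.83) and Mir496a (−0.68) then fell inside 2-fold, while Mir377 (1.03) passed it, and Mir380 (−1.40), Mir668 (−1.02) and Mir539 (1.81) remained called. Scaling by the members' own sum likewise raises every log2 ratio by 0.33. The summed cluster, equal between the hearts as a share of total counts, was therefore lower in replicate 1 by that amount under TMM scaling.

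The 28 members not called included most of the abundant ones. Mir382 and Mir487b both had a ratio of −0.11, which turned to 0.22 under total counts. Mir541 (0.21), Mir409 (0.33), Mir134 (0.27), Mir381 (0.48) and Mir485 (0.41) had ratios above 0 under TMM scaling and under total counts. Mir411 (−0.43), Mir299a (−0.55), Mir376c (−0.37) and Mir376a (−0.75) had ratios below 0 under both. Further along, Mir329, Mir668, Mir496a and Mir410 were also below 0 under both. The first 4 genes of the cluster, Mir379, Mir411, Mir299a and Mir380, all had ratios below 0 under both, a block set with earlier results of these data known. Together they held 38.6% of the cluster's counts in replicate 1 (38.3 to 38.9) and 53.0% in replicate 2 (52.7 to 53.3). Most of that difference lay in Mir379, with 15.8% and 28.1%. Mir411 held 20.4% and 21.8%, Mir299a 2.17% and 2.52%, and Mir380 0.223% and 0.591%. Across the 33 genes Spearman's rho between position and the ratio was 0.38, a description over genes that share both libraries. The median ratio of the members was −0.11, against −0.02 for all tested genes.

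The nearest genes to set beside these are the 20 plus-strand microRNA genes of the proximal part of the same region, from Mir1906-1 (start 109544541) to Mir882 (start 109682197), of which 14 were detected. Several lie antisense to Rtl1, and the group is likewise known to be maternally expressed. Their sum held 1.10% of all counts in replicate 1 (1.09 to 1.11) and 0.669% in replicate 2 (0.663 to 0.676), where the distal cluster had 1.51% in both. The highest were Mir127 (6733 and 3717 CPM), Mir431 (1208 and 1077 CPM) and Mir337 (761 and 477 CPM). The distal cluster therefore made up 58.0% of the counts of both parts in replicate 1 (57.7 to 58.2) and 69.3% in replicate 2 (69.1 to 69.6), a ratio that does not depend on scaling. Without Mir127 and Mir379, the leading gene of each part, these values were 75.0% (74.8 to 75.3) and 78.5% (78.2 to 78.8). By the exact binomial test with TMM scaling, none of the 14 proximal genes tested was called in either direction, and 11 had an unadjusted p under 0.05. Small p-values were common in this test: 47.9% of all tested genes and 63.6% of tested distal genes had an adjusted p under 0.05. Under total counts, 2 of the 14 were called higher in replicate 1, Mir673 (1.11) and Mir493 (1.08), which are named after their values were seen. The median log2 ratio of the proximal genes was 0.45, against −0.11 for the distal genes, and under total counts these medians were 0.78 and 0.22. Whether the 2 parts differ between hearts beyond the spread among animals could not be tested with 1 library each.

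**Figure D4:**
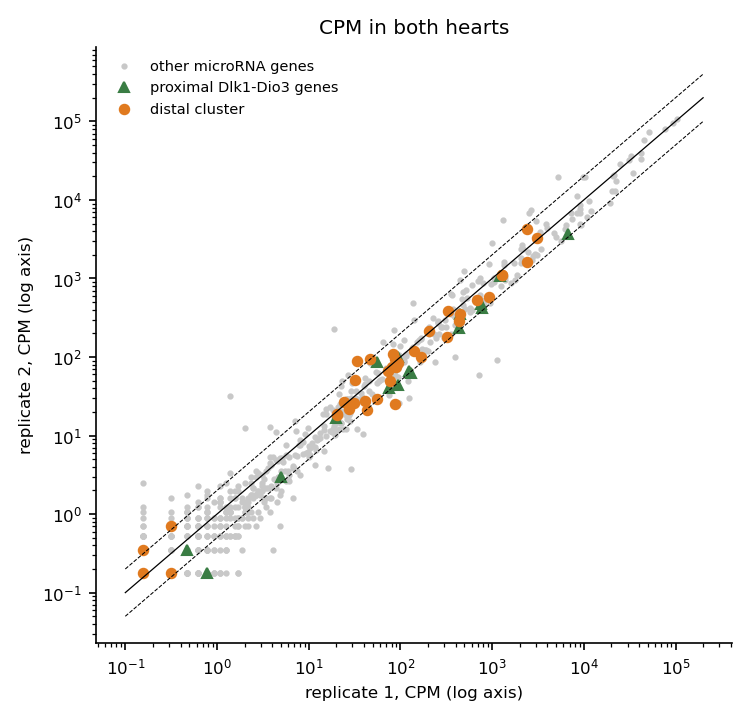
CPM in replicate 1 against replicate 2 on log axes, for the 37 distal genes with counts in both libraries (circles), 16 proximal genes (triangles) and 585 other microRNA genes (small points), with lines at equality and 2-fold before TMM scaling. Most distal genes lie between the outer lines, and the 4 distal genes at the lower left have 1 to 4 counts.

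Across the 33 detected members, log2 CPM in the 2 libraries had a Pearson correlation of 0.96 and a Spearman correlation of 0.92, given as descriptions since the genes share libraries. The heart label was checked against marker genes. All 8 heart muscle genes had counts in both libraries and summed to 21024 and 19193 CPM, led by Mir208a (10883 and 6019 CPM), Mir208b (7457 and 5640 CPM) and Mir499 (2653 and 7487 CPM). In CPM, Mir208a and Mir208b were thus higher in replicate 1 and Mir499 in replicate 2. Under TMM scaling the log2 ratio was 0.52 for Mir208a, only 0.07 for Mir208b and −1.83 for Mir499. Mir133a-2 (12 and 2 counts), Mir133b (10 and 9) and Mir1a-1 (9 and 19) did not reach 10 counts in both. The copies of Mir1a and Mir133a were at 33.6 CPM or less, and their identical copies share reads that map to more than 1 place. Because this cluster is known from neurons, the neuronal list was also read: its 9 genes summed to 307 and 224 CPM, nearly all from Mir128-1 and Mir128-2. Mir137 of that list held 16.1 CPM in replicate 1 and 3.89 CPM in replicate 2. The 3 Mir124a copies had 0 counts, as did Mir9-1, and Mir9-2 and Mir9-3 had at most 3, but identical copies lose their reads to multi-mapping, so these zeros do not measure miR-124 or miR-9. Summed lists for other cells are given in CPM, which is scaled by total counts and not by TMM. Mir206, known from skeletal muscle, held 718 and 58.5 CPM, and the 2 red cell genes summed to 489 and 126 CPM. The 4 leukocyte genes summed to 1301 and 872 CPM but went different ways: Mir155 (810 and 465 CPM) and Mir142 (240 and 87.4 CPM) were higher in replicate 1, Mir223 (83.1 and 148 CPM) in replicate 2, and Mir150 had 168 and 171 CPM. The 4 fibroblast genes, with Mir199a-1 at 0, summed to 10866 and 22305 CPM. Of these, Mir21a was higher in replicate 2 (5250 and 19313 CPM), Mir214 in replicate 1 (5595 and 2969 CPM), and Mir199a-2 had 20.9 and 22.8 CPM. The 2 smooth muscle genes held 47055 and 60331 CPM, endothelial Mir126a 51829 and 73011 CPM, and liver Mir122 105 and 86.2 CPM. Their part in the differences among cluster genes was not tested. In whole-heart RNA, fewer cells of a type and less RNA per cell cannot be told apart.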

How the data were processed

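MicroRNA libraries from 2 hearts were analysed. The authors deposited raw counts per microRNA gene, 1 table per library, not normalized and not pooled; per the file headers in the accompanying text, the build is mm10 and the annotation GENCODE M21. For aligner, counter and trimming, no name was given in the sources used here. Of the 3 count columns, the third column of the table (own strand) was used. All 2202 genes matched M21. Summary entries stayed out of library sizes: of all reads, 39.6% in replicate 1 and 43.2% in replicate 2 were multi-mapped and are in no gene's count. Hairpins sharing 20 nt with a microRNA gene that does not overlap them were marked (5 members, each with a partner inside the cluster).

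CPM used total own-strand counts. TMM factors (1.12 and 0.891) came from genes with at least 10 summed counts, and 0.5 was added to each count in ratios. Members, lists and tests were chosen with earlier results of these data known. Full values were given for the 12 most abundant members, every called or undetected member and those sharing a seed or stretch. The test was tested on simulated data. Software was Python 3.11.15, scipy 1.17.1, pandas 2.3.3, numpy 2.4.6, matplotlib 3.10.9, R 4.3.3 and edgeR 4.0.16. Alternatives covered scaling, test, strand, count minimum, added count and members; leaving out a library left no test between libraries.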

Additional observations from a re-analysis of the deposited data

How the results depend on the processing

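The number of detected members was within 1.5 times of 33 under every count minimum, strand setting and single library tried. Counting both strands together, which empties 5 members, gave a cluster share of 1.73% of counts in place of 1.51%, a median of 60.4 CPM in place of 77.9 and a share of the 5 leading genes of 78.9% in place of 72.1%. The cluster share was 1.05% without the members that share a 20-nt stretch and 1.18% without Mir379. Members higher in replicate 1 numbered 1, but 2 when scaled by total counts or by the members' own sum, 0 with both strands together and 0 with edgeR's exact test and an estimated dispersion. With both strands together, the called gene Mir539 was among the emptied members and could not be tested, so that 0 does not show a weaker difference. Members higher in replicate 2 numbered 4, but 2 under total counts, 2 under the members' sum and 0 with that edgeR test. The dispersion in that edgeR test came from the same differences that it tested. Of the 108 recomputed ratios of 16 named members, 92 kept direction and side of the threshold, 11 lost the call and 5 changed sign. Those 5 were Mir487b (0.22 under total counts and under the members' sum), Mir382 (0.22 under both) and Mir369 (−0.0037 with both strands together, in place of 0.02), none of them called. Only the 5 called members could lose a call. Mir377, called under total counts and under the members' sum, was outside the 16, so its gain is not counted. Mir496a also came inside 2-fold with RLE factors (−0.997) and, in an alternative chosen after seeing the data, with TMM factors from all genes (−0.99). Depth sets a floor of 0.467 and 0.530 CPM, and multi-mapped reads may hide strands shared between hairpins.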

Other observations

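Mir382 and Mir487b, which start 24.7 and 18.3 kb from the start of Mir379, had nearly the same counts in each heart: 8249 and 8237 in replicate 1, 6237 and 6241 in replicate 2. The share of Mir487b in their sum was 49.96% in replicate 1, with exact bounds of 49.2 and 50.7%, while replicate 2 gave 50.02%, with bounds of 49.1 and 50.9%. This pair was chosen after its values were seen, and Mir487b shares a 20-nt stretch with Mir376b while Mir382 shares none.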
